A study of Mus musculus with 20 samples.

Results

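The genes described here encode the coagulation and complement factors that the liver releases into blood plasma. Membership followed a named list of 35 genes. Of these, 34 matched an identifier in the count files, which hold 46603 identifiers, and Klkb1 is named only. The 34 genes divide into 18 of the coagulation system and 16 of the complement system. All 34 passed the filter on low counts and were tested among 14661 genes.

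RNA was sequenced from livers of 5 male wild-type mice and 5 male EedHepKO mice, aged 2 months, of the strain labelled C57BL6/J and fed a chow diet. EedHepKO mice carry Alb:Cre, a Cre recombinase transgene driven by the albumin promoter, and Eed alleles with loxP sites around exons 3 and 6 (Eedflox), so that hepatocytes lack working EED, a core subunit of the histone H3 methyltransferase polycomb repressive complex 2. Partial hepatectomy (PHx) removes part of the liver and sets off regeneration of the remainder. Lobes 1 to 3, taken at surgery, are the baseline libraries, and lobes 4 to 6, taken 30 h (1 mouse per genotype), 40 h (2 mice) or 48 h (2 mice) later, are the libraries after PHx, so that 4 groups hold 5 libraries each. The wild-type mice were bought from The Jackson Laboratory and carried neither transgene nor loxP alleles as far as the labels say, whereas the EedHepKO mice came from a cross and inbreeding, so genotype cannot be told apart from colony. Surgery likewise cannot be told apart from lobe. Replicates 1 to 5 are wild type and replicates 7, 8, 10, 11 and 12 are EedHepKO. Values for a group follow in that order.

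Coagulation is a cascade of plasma proteases that ends with thrombin cutting fibrinogen into fibrin, held in check by antithrombin, by protein C with its cofactor protein S, and by plasmin, which dissolves the clot. Complement is a second plasma cascade, started by the classical, lectin or alternative pathway, in which cleavage of C3 leads to the terminal components that assemble the membrane attack complex. Hepatocytes make most of these proteins, and several of them, fibrinogen above all, are also acute phase proteins whose synthesis changes after injury.

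Library totals lay between 21634890 and 30461351 counts. Eed, the targeted gene, measured 15.3 to 18.4 CPM (counts scaled to a common library total, with totals scaled by the trimmed mean of M-values) at wild-type baseline and 14.6 to 23.2 in wild type after PHx, against 3.83 to 7.52 and 2.75 to 5.82 in the 2 EedHepKO groups, so the genotypes did not overlap. The EedHepKO baseline libraries also differed in cell type markers, of which 8 of 14 Kupffer cell and macrophage genes and 8 of 14 stellate cell and fibroblast genes were higher than in wild type and 5 of 14 hepatocyte genes were lower. Of 8 cholangiocyte genes 3 were higher, and their sum was 86.7 to 403 CPM in EedHepKO and 34.4 to 81.1 CPM in wild type. Summed Kupffer markers ranged from 706 to 946 CPM in EedHepKO and from 268 to 465 CPM in wild type at baseline, and summed hepatocyte markers from 82122 to 109193 CPM against 135174 to 157133 CPM. In whole liver, fewer hepatocytes and less RNA per hepatocyte cannot be told apart, and the part of these marker differences in the results below was not tested.

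Promoter windows of 250 bases before the transcription start were found in RefSeq (GRCm38.p6) for 26 of the 34 genes, and were searched on both strands for short patterns known from liver promoters. Windows are shown for Pros1, which rose after PHx, for Fga, whose libraries after PHx differed widely, and for F11, C8a, C8b, Hc, Serpinc1 and Serpinf2, the 6 genes lower in EedHepKO than in wild type after PHx. Capitals mark matches to TTCNNNGAA (STAT), TGTTTNC (FOXA), TAATNATTA (the HNF1 core) or TATAAA (the TATA box), and each sequence runs 5′ to 3′ on the strand of its gene.
Fga (chr3:83025903-83026152, plus strand): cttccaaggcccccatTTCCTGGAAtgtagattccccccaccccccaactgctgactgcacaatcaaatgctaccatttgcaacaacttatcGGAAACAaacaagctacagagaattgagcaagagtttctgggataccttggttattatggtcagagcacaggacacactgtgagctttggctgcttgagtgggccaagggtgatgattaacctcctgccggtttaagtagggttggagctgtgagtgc
Pros1 (chr16:62854057-62854306, plus strand): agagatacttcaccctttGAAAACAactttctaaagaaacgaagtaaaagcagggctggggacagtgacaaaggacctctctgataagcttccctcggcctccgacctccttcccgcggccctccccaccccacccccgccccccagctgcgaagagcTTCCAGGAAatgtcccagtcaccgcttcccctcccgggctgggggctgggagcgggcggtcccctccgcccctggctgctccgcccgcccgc
F11 (chr8:45262032-45262281, minus strand): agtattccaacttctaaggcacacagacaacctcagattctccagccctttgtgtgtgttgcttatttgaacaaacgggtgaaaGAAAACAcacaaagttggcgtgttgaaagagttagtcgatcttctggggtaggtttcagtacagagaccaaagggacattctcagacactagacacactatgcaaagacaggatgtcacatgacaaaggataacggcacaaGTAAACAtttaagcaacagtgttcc
C8a (chr4:104876399-104876648, minus strand): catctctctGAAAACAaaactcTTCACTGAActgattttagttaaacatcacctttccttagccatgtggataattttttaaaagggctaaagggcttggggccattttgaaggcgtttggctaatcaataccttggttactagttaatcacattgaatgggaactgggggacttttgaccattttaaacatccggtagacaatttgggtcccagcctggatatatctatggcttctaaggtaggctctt
C8b (chr4:104766067-104766316, plus strand): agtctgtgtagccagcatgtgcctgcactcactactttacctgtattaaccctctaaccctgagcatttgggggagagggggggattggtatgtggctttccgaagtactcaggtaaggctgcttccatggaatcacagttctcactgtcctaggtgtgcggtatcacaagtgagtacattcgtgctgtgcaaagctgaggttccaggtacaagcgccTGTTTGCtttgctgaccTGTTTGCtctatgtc
Hc (chr2:35061413-35061662, minus strand): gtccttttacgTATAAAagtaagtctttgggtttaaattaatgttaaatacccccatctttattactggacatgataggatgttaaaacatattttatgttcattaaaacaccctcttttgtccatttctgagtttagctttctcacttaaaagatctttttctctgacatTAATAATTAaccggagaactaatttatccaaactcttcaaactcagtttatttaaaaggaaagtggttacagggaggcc
Serpinc1 (chr1:160978333-160978582, plus strand): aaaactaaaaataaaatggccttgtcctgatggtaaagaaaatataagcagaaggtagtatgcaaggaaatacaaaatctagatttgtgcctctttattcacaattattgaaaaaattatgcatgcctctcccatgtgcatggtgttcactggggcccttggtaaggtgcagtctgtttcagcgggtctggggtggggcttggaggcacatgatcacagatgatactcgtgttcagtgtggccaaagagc
Serpinf2 (chr11:75439502-75439751, minus strand): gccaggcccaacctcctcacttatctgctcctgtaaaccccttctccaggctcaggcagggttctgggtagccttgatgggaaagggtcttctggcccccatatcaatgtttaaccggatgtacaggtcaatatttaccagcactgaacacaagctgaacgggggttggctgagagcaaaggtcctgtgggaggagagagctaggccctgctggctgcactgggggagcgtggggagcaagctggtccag

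The windows of Fga, Pros1 and C8a each held a STAT and a FOXA match, those of F11 and C8b held a pair of FOXA matches each, and that of Hc held an HNF1 core and a TATA box. Those of Serpinc1 and Serpinf2 held 0 matches to any pattern searched, so no pattern was shared by the 6 genes. Over the 26 genes with a window, the STAT pattern was present in 5 (19.2%; Fga, Pros1, C8a, Masp2 and F9), against 7.02% of all 32851 promoter windows of the same length. The FOXA pattern was present in 8 genes (30.8%) against 17.8% of all windows, and the HNF1 core in 2 (7.69%; Hc and F13b) against 0.588%. C/EBP (TTNNGNAA) matched in 12 genes (46.2%) against 36.8%, AP-1 (TGANTCA) in 3 (11.5%) against 6.75%, HNF4 (CAAAGTNCA) in 1 (3.85%) against 1.19%, and the TATA box in 1 (3.85%) against 12.4%. These shares of the list are per gene, whereas those of all promoters are per window. Per window, the 27 windows of the list gave 18.5% for STAT, 29.6% for FOXA and 7.41% for the HNF1 core. They gave 44.4% for C/EBP, 11.1% for AP-1, and 3.70% each for HNF4 and the TATA box. C/EBP matches are not capitalised in the sequences, and in Serpind1 a C/EBP and a FOXA match shared bases. A match is a run of letters only, with no measurement of binding behind it.

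At wild-type baseline the genes spanned a wide range of levels. Per kilobase of annotated exon, Fgg (2634 ± 122 CPM per kb, SD, n = 5), Fga (2431 ± 136) and C3 (1589.6 ± 158) were the most abundant, where the levels of Fgg and Fga differed by less than 2 SD of either. Next came Plg (864 ± 54.1) and Kng1 (832 ± 34), which differed by less than their SDs, followed by Hrg (471 ± 33) and F2 (464 ± 20.1), which likewise lay within their spread. At the other end stood F11 (40.1 ± 5.65), Pros1 (13.8 ± 2.02), Masp1 (7.96 ± 1.19), C2 (7.28 ± 0.39) and Cfb (3.23 ± 0.619). The levels of Cfb and C2 are uncertain, because the annotated read-through gene Gm20547 shares 79.5% of the exon bases of Cfb and 42.8% of those of C2 on the same strand and has 0 counts in every library. Together the 34 genes took 3.50% ± 0.287 of all counts at wild-type baseline (SD, n = 5), 4.76% ± 1.09 in wild type after PHx, 4.11% ± 0.132 at EedHepKO baseline and 4.31% ± 1.05 in EedHepKO after PHx. These shares are of unscaled counts, unlike the CPM values. Without Fga, Fgg and C3 the remaining genes took 1.90% ± 0.135, 1.42% ± 0.433, 2.00% ± 0.0512 and 1.24% ± 0.365 in the same order.

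**Figure D1:**
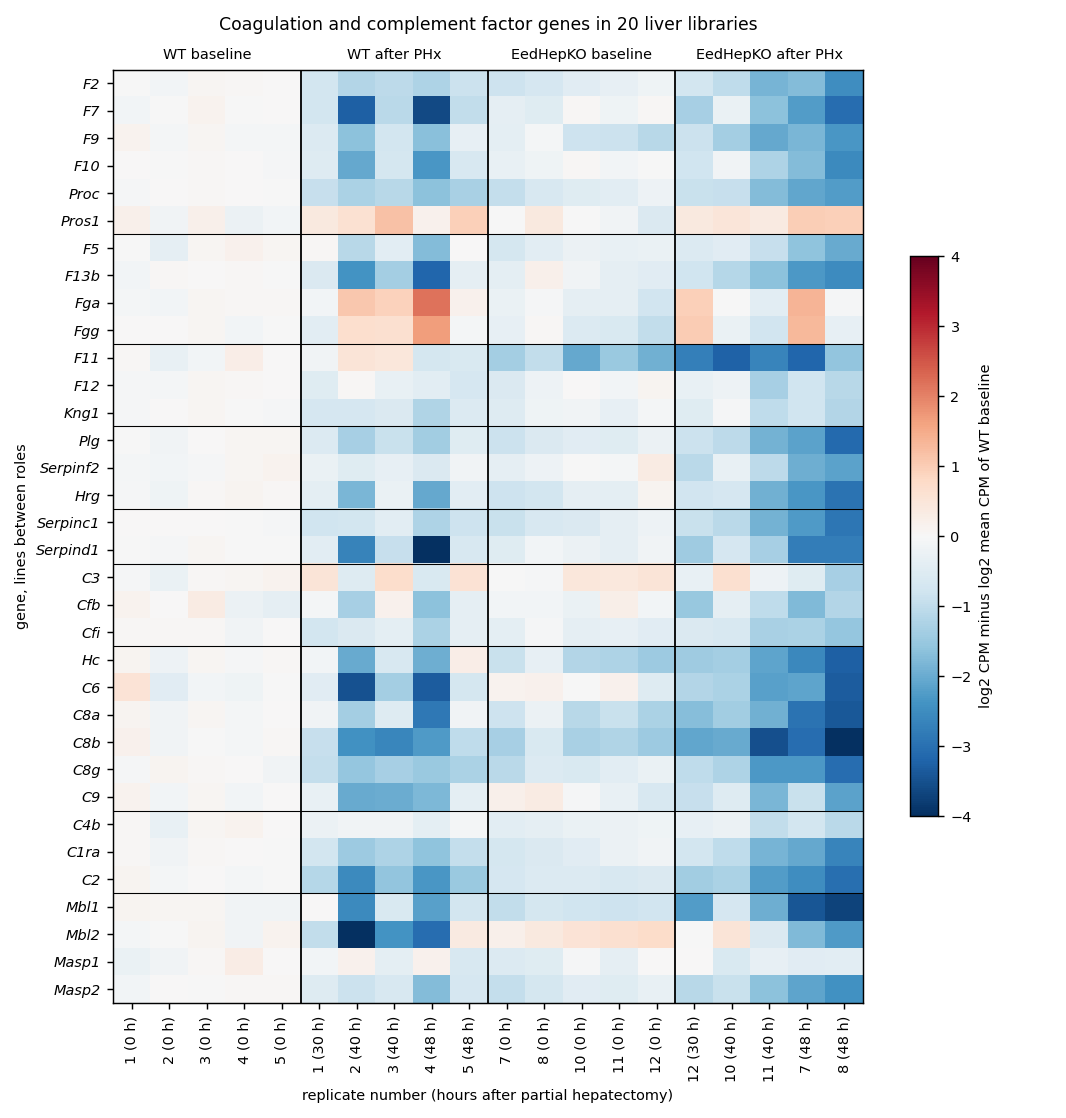
Level of each of the 34 genes (rows, with lines between roles) in each of the 20 libraries (columns, by group, hours after PHx and replicate), as log2 CPM minus log2 of the mean CPM of the 5 wild-type baseline libraries. Blue (lower) fills most rows after PHx in both genotypes and is deepest in wild-type replicates 2 and 4 and EedHepKO replicates 7, 8 and 11, while Pros1, Fga and Fgg show red.

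After PHx the log2 change was negative for 30 of the 34 genes in wild type and for 31 in EedHepKO, and Pros1 rose in both genotypes. By the test, in wild type 15 of 34 genes fell and 1 rose, where over all 14661 genes 8.68% fell and 11.4% rose. In EedHepKO 20 of 34 fell and 1 rose, where 12.1% of all genes fell and 17.5% rose. The median log2 change of the 34 genes was -0.81 in wild type and -1.02 in EedHepKO, against 0.04 and 0.10 over all genes tested. The wild-type groups before and after PHx did not overlap for 20 genes, all lower after PHx (over all genes 10.9% were lower without overlap and 6.91% higher). The EedHepKO groups did not overlap for 9, all lower (over all genes 7.73% were lower without overlap and 6.19% higher). The same 14 genes passed the threshold in both genotypes. Pros1 was the gene that rose, and F2, F9, F10, Proc, F13b, C6, C8b, C8g, C9, Cfi, C1ra, C2 and Masp2 fell. The calls of both genotypes come from 1 fit of all 20 libraries, and the share of all genes passing in both was not counted. Of 14 hepatocyte marker genes, 6 fell in wild type and 4 in EedHepKO in the same libraries and 0 rose, and their part in these falls was not tested. Markers of other cells also moved, with 4 of 14 endothelial genes lower and 0 higher in wild type and 6 lower and 1 higher in EedHepKO. Of 14 Kupffer cell genes 2 rose and 1 fell in wild type, and 1 rose and 5 fell in EedHepKO. Of 14 stellate cell genes 1 rose and 1 fell in wild type and 1 rose and 2 fell in EedHepKO, and of 8 cholangiocyte genes 0 changed in wild type and 3 rose in EedHepKO. The part of these markers was not tested either.

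With only the libraries compared in the fit, 14 genes fell in wild type (11.1% of all genes fell) and 13 in EedHepKO (7.54%). In wild type Plg and Serpinc1 then passed and C6, C9 and F13b did not. In EedHepKO Serpind1 then passed and Cfi, F2, F9, F10, Hrg, Plg, Proc and Serpinc1 did not. In these fits C1ra, C2, C8b, C8g, Masp2 and Pros1 were the genes that passed in both genotypes.

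**Figure D2:**
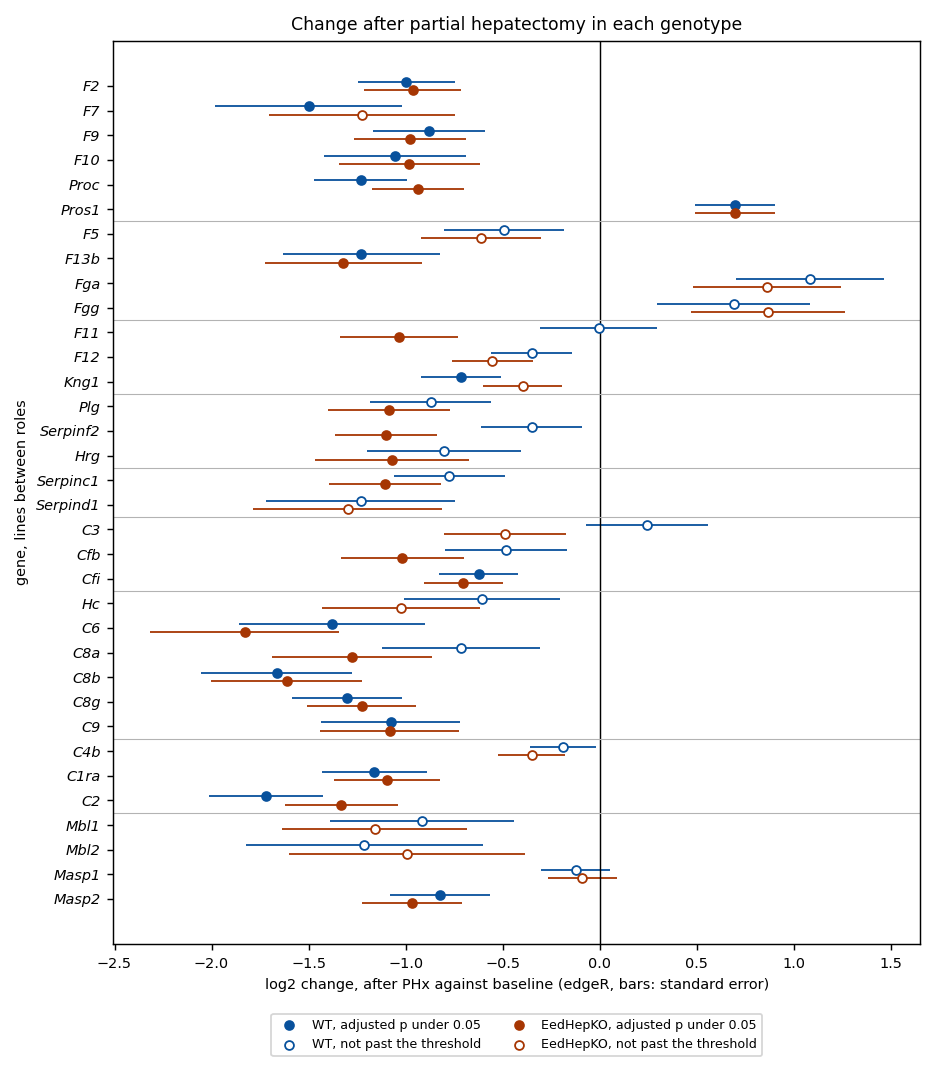
The log2 change after PHx for each gene in wild type (blue) and EedHepKO (brown), with bars of 1 standard error and filled points where the adjusted p was under 0.05. Filled points lie left of 0 for every gene but Pros1, and Fga and Fgg stand to the right of 0 with open points.

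Of the 6 vitamin K-dependent proteins, whose glutamate residues are carboxylated so that they bind calcium and membranes, 5 fell in wild type and 4 in EedHepKO, and Pros1 rose in both. F2 encodes prothrombin. In wild type F2 measured 2087, 1994, 2228, 2189.8 and 2153 CPM at baseline and 1273, 950.4, 1042, 907 and 1167 CPM after PHx. In EedHepKO F2 measured 1196, 1351, 1547, 1692 and 1899 CPM at baseline and 646, 384, 1044, 588 and 1279 CPM after PHx. Each wild-type library after PHx was below each wild-type baseline library (log2 change -1.0, SE 0.25, adjusted p = 0.0093). In EedHepKO replicate 12, taken at 30 h, was the only library after PHx within the baseline range (log2 change -0.96, SE 0.25, adjusted p = 0.00879).

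Proc encodes protein C, the protease that inactivates factors V and VIII once thrombin has activated it. In wild type Proc measured 644, 675, 686, 676 and 668 CPM at baseline and 351, 276, 312, 213 and 275 CPM after PHx. In EedHepKO Proc measured 345, 431, 476, 497 and 582 CPM at baseline and 159, 144, 353, 200.1 and 361 CPM after PHx. Proc fell 2.35-fold in wild type, without overlap of the groups (log2 change -1.23, SE 0.24, adjusted p = 0.00176). It fell 1.92-fold in EedHepKO, where replicates 10 and 12 after PHx lay within the baseline range (log2 change -0.94, SE 0.24, adjusted p = 0.00778).

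Pros1 encodes protein S, the cofactor of activated protein C, and is made by endothelial cells as well as hepatocytes. In wild type Pros1 measured 65.5, 50.7, 65, 48 and 52.7 CPM at baseline and 73.5, 85.8, 126, 63.4 and 109 CPM after PHx. In EedHepKO Pros1 measured 56.3, 74.3, 55.2, 50.9 and 37.8 CPM at baseline and 111, 108, 79.3, 72 and 74.1 CPM after PHx. The groups overlapped, but Pros1 was higher after PHx in each of the 9 mice whose library titles carry the same number before and after surgery, by 0.39 to 1.03 on the log2(CPM + 1) scale. Summed endothelial markers were at 362 to 415 CPM at wild-type baseline and 166 to 302 CPM after PHx, and at 438 to 506 CPM and 174 to 373 CPM in EedHepKO. The part of endothelial cells in the Pros1 level was not tested. The rise was 0.70 in wild type (SE 0.21, adjusted p = 0.0219) and 0.70 in EedHepKO (SE 0.21, adjusted p = 0.0172). Proc and Pros1, which work together as enzyme and cofactor, moved in opposite directions.

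F9 encodes factor IX, the protease that activates factor X together with factor VIII. In wild type F9 measured 273, 237, 262, 234 and 233 CPM at baseline and 169, 80.2, 149, 77.9 and 197 CPM after PHx. In EedHepKO F9 measured 189, 233, 139.9, 137 and 114 CPM at baseline and 69.6, 49.4, 97, 60.0 and 137 CPM after PHx. F9 fell in both genotypes (wild type, log2 change -0.88, SE 0.29, adjusted p = 0.037; EedHepKO, log2 change -0.98, SE 0.29, adjusted p = 0.0175). With the mouse as a block the wild-type value was -1.05, with an adjusted p of 0.0801.

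F7 and F10 encode proteases of the extrinsic and the common pathway and lie 1499 bp apart on chromosome 8. F7 ranged from 93.5 to 112 CPM at wild-type baseline and from 8.4 to 61.3 CPM after PHx. In EedHepKO F7 ranged from 72.2 to 105 CPM at baseline and from 12.5 to 85.1 CPM after PHx. It fell in wild type (log2 change -1.50, SE 0.48, adjusted p = 0.0338). The EedHepKO value was -1.23 (adjusted p = 0.0591), or -1.51 with an adjusted p of 0.0263 when the mouse was a block. F10 ranged from 528 to 553 CPM at wild-type baseline and from 108 to 382 CPM after PHx. In EedHepKO F10 ranged from 436 to 563 CPM at baseline and from 91.7 to 485 CPM after PHx. F10 fell in both genotypes (-1.05, adjusted p = 0.047, and -0.98, adjusted p = 0.0485). Wild-type replicates 2 and 4 were the low libraries for both genes, with F7 at 10.5 and 8.4 CPM.

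Among 9 genes of the vitamin K cycle and of factor export, 2 rose and 1 fell after PHx in each genotype. Vkorc1, the epoxide reductase that recycles vitamin K and the target of warfarin, fell in wild type (-1.44, SE 0.37, adjusted p = 0.00994) and in EedHepKO (-1.44, SE 0.37, adjusted p = 0.00809). Aifm2, a vitamin K reductase also known as FSP1, rose in both (2.10 and 1.77). Nqo1, a quinone reductase, rose in wild type (1.74).

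The fibrinogen chain genes Fga and Fgg passed the threshold of the edgeR test in no comparison, and their libraries after PHx differed widely from each other. Fga ranged from 6831 to 7756 CPM at wild-type baseline and measured 6763, 15592, 13909, 32974 and 8221 CPM after PHx (log2 change 1.08, SE 0.38, adjusted p = 0.0504). In EedHepKO Fga ranged from 4330.3 to 7159 CPM at baseline and measured 18609, 7138, 7246, 5507 and 14085 CPM after PHx (log2 change 0.86, SE 0.38, adjusted p = 0.0902). Wild-type replicates 2 to 5 and EedHepKO replicates 7, 10 and 12 lay above the baseline range of their genotype, EedHepKO replicates 8 and 11 within it and wild-type replicate 1 below it. The change of Fga in wild type lay at the threshold and passed with DESeq2 (1.11, adjusted p = 0.018), RLE scaling (1.11, adjusted p = 0.0467), a collection time term (0.98, adjusted p = 0.032), library size alone (1.43, adjusted p = 0.00628) and without the 30 h libraries (1.27, adjusted p = 0.0191). It also passed without wild-type replicate 1 (1.27, adjusted p = 0.0211) or 5 (1.29, adjusted p = 0.0259) after PHx, and in EedHepKO it passed with library size alone (1.06, adjusted p = 0.0266).

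Fgg lies 11027 bp from Fga on chromosome 3. It ranged from 5145 to 5822 CPM at wild-type baseline and measured 4109.6, 8715, 8629, 17721 and 5277 CPM after PHx (0.69, adjusted p = 0.23). In EedHepKO Fgg ranged from 2772 to 5664 CPM at baseline and measured 13489, 4405, 4556, 3243 and 11258 CPM after PHx (0.87, adjusted p = 0.101). With library size alone Fgg rose in both (1.05, adjusted p = 0.037 in wild type, and 1.05, adjusted p = 0.0329 in EedHepKO). Wild-type replicates 2, 3 and 4 and EedHepKO replicates 7 and 12 were above the baseline range for Fgg as for Fga. The remaining fibrinogen chain gene, Fgb, is not on the list and ranged from 5704 to 24639 CPM in wild type and from 5113 to 16049 CPM in EedHepKO after PHx. Fga, Fgg and C3 made up 44.9% to 46.5% of the counts of the 34 genes in the wild-type baseline libraries and 56.3% to 85.7% after PHx. In EedHepKO these shares were 47.7% to 53.6% and 61.5% to 83.0%.

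F13b encodes the carrier subunit of factor XIII, which crosslinks fibrin. In wild type F13b measured 229, 258, 255, 259 and 249.8 CPM at baseline and 168, 47.3, 97, 27.9 and 194 CPM after PHx. In EedHepKO F13b measured 190.0, 289, 225, 196 and 185 CPM at baseline and 51.1, 43.9, 113, 80.8 and 145 CPM after PHx. It fell in both genotypes without overlap (log2 change -1.23, SE 0.40, adjusted p = 0.0372 in wild type and log2 change -1.32, SE 0.40, adjusted p = 0.0207 in EedHepKO). F5 encodes factor V, the cofactor of factor Xa. F5 ranged from 529 to 754 CPM at wild-type baseline and from 205 to 698 CPM after PHx. In EedHepKO F5 ranged from 417 to 569 CPM at baseline and from 168 to 494 CPM after PHx. Its change did not pass the threshold (-0.49, adjusted p = 0.276, and -0.61, adjusted p = 0.136).

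**Figure D3:**
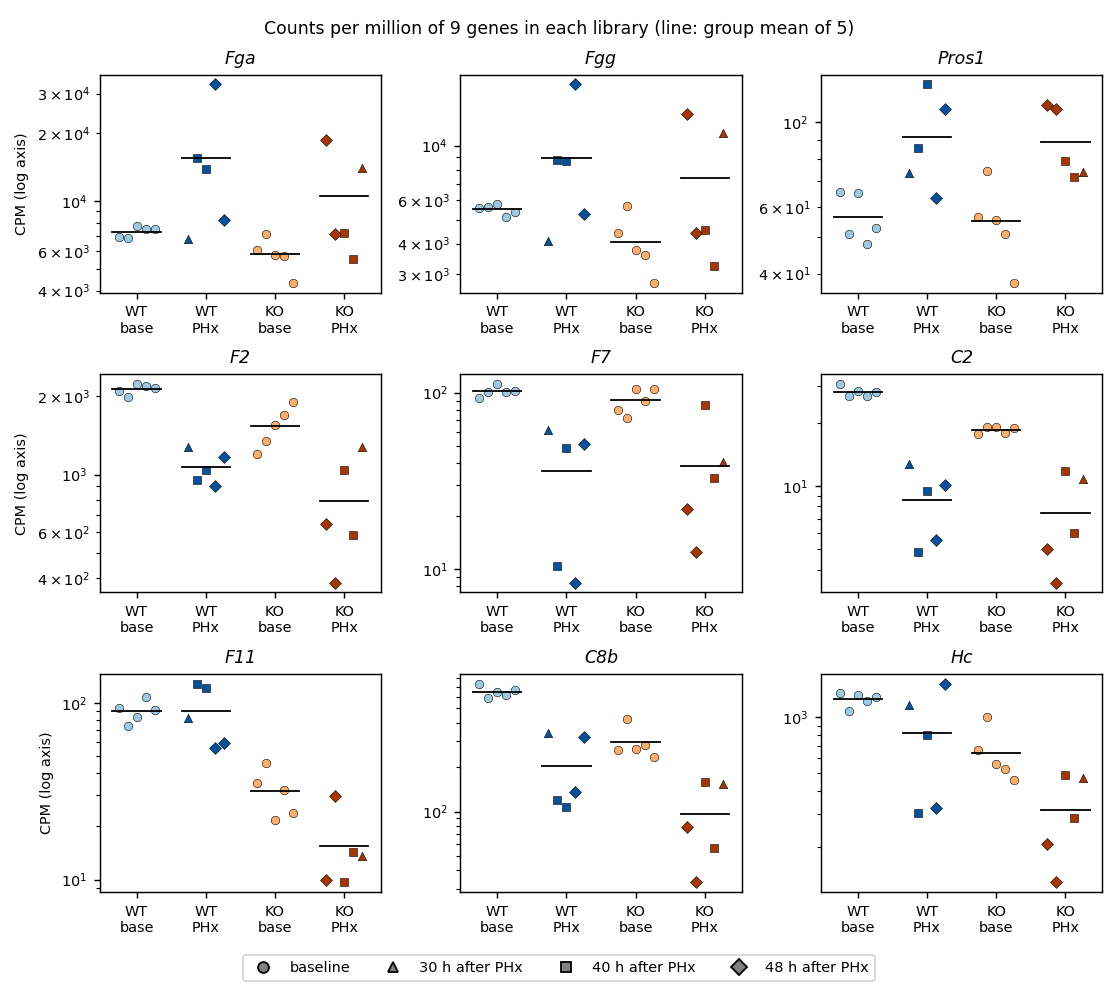
CPM on a log axis of 9 genes in every library, by group (WT, wild type; KO, EedHepKO; base, baseline), with the group mean as a line and the shape of a point giving the hours after PHx. F2, C2 and C8b are lower after PHx in both genotypes, Pros1 is higher, Fga and Fgg spread widely after PHx, and F11 is lower in all EedHepKO libraries than in all wild-type libraries.

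The contact system genes differed among themselves. Kng1 encodes kininogen, the source of bradykinin, and reads may be split between it and its near copy Kng2, which was counted separately. In wild type Kng1 measured 2589, 2726, 2878, 2684 and 2638 CPM at baseline and 1714, 1684, 1813, 1177 and 1847 CPM after PHx. In EedHepKO Kng1 measured 1881, 2411, 2431, 2131 and 2539 CPM at baseline and 1539.9, 1198, 2637, 1342 and 1939 CPM after PHx. Kng1 fell in wild type without overlap (log2 change -0.71, SE 0.20, adjusted p = 0.0187), with an adjusted p of 0.0600 when the mouse was a block. In EedHepKO the value was -0.40 (adjusted p = 0.144), and replicate 10 after PHx was above the baseline range. F12 encodes the protease that starts the contact pathway. F12 ranged from 602 to 679 CPM at wild-type baseline and from 401 to 659 CPM after PHx. In EedHepKO F12 ranged from 429 to 697 CPM at baseline and from 256 to 552 CPM after PHx. Neither change of F12 passed the threshold (-0.35, adjusted p = 0.246, and -0.55, adjusted p = 0.0507).

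The 3 genes of fibrinolysis and its regulators fell in EedHepKO, and 0 of 3 passed the threshold in wild type. With only the libraries compared in the fit, Plg passed in wild type (-0.83, adjusted p = 0.0147), and in EedHepKO Plg (adjusted p = 0.0791) and Hrg (adjusted p = 0.105) did not. The responses of these genes did not pass the test of a difference between the genotypes. Plg encodes plasminogen, the zymogen of plasmin. In wild type Plg measured 3143, 2900.3, 3226, 3368 and 3398 CPM at baseline and 2201, 1291, 1735, 1235 and 2301 CPM after PHx. In EedHepKO Plg measured 1765, 2150.0, 2325, 2297 and 2713 CPM at baseline and 728, 370.2, 1565, 856 and 1776 CPM after PHx. The wild-type groups did not overlap (log2 change -0.87, SE 0.31, adjusted p = 0.0539). In EedHepKO Plg fell (log2 change -1.09, SE 0.31, adjusted p = 0.0153), and replicate 12 after PHx just exceeded baseline replicate 7.

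Serpinf2 encodes alpha-2-antiplasmin, the inhibitor of plasmin. In wild type Serpinf2 measured 856, 840.5, 879, 953 and 1005 CPM at baseline and 758, 643, 728, 608 and 816 CPM after PHx. In EedHepKO Serpinf2 measured 712, 785, 904, 851 and 1144 CPM at baseline and 233, 208, 742, 439.7 and 428 CPM after PHx. It fell in EedHepKO (log2 change -1.10, SE 0.26, adjusted p = 0.00553), where replicate 10 after PHx lay within the baseline range. In wild type the groups did not overlap and the value was -0.35 (adjusted p = 0.362). Hrg encodes a histidine-rich glycoprotein that binds plasminogen and heparin. Hrg ranged from 842 to 1007 CPM at wild-type baseline and from 229 to 778 CPM after PHx. In EedHepKO Hrg ranged from 528 to 1005 CPM at baseline and from 121 to 587 CPM after PHx. Hrg fell in EedHepKO (-1.07, adjusted p = 0.0484), and its wild-type value was -0.80 (adjusted p = 0.158).

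Serpinc1 encodes antithrombin, the main inhibitor of thrombin and factor Xa. In wild type Serpinc1 measured 2694, 2734, 2721, 2669.7 and 2615 CPM at baseline and 1561, 1607, 2013, 1146 and 1527 CPM after PHx. In EedHepKO Serpinc1 measured 1447, 1708, 1796, 2112 and 2333 CPM at baseline and 564, 361, 1264, 719 and 1454 CPM after PHx. In EedHepKO it fell (log2 change -1.11, SE 0.29, adjusted p = 0.00892), with replicate 12 after PHx just above baseline replicate 7. In wild type the groups did not overlap and the change missed the threshold (log2 change -0.77, SE 0.29, adjusted p = 0.061). With only the libraries compared the calls turned round, with -0.74 in wild type (adjusted p = 0.0105) and -1.07 in EedHepKO (adjusted p = 0.0656), and with a collection time term wild type also passed (-0.79, adjusted p = 0.00801). Zbtb37 on the other strand overlaps 34.4% of the exon bases of Serpinc1. Serpind1 encodes heparin cofactor II. Serpind1 ranged from 716 to 786 CPM at wild-type baseline and from 44 to 549 CPM after PHx. In EedHepKO Serpind1 ranged from 528 to 687 CPM at baseline and from 108 to 459.5 CPM after PHx. Its changes of -1.23 and -1.30 missed the threshold (adjusted p = 0.0789 and 0.0501). With the mouse as a block they were -2.05 (adjusted p = 0.0368) and -1.52 (adjusted p = 0.0429).

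Of the 6 terminal pathway genes, 4 fell in wild type and 5 in EedHepKO. C8a and C8b, neighbours 11131 bp apart on chromosome 4, and C8g encode the 3 chains of C8, which anchors the membrane attack complex. In wild type C8b measured 733, 589, 641, 616 and 667 CPM at baseline and 341, 120.5, 107, 136 and 320.0 CPM after PHx. In EedHepKO C8b measured 261, 427, 267, 281 and 235 CPM at baseline and 78.6, 33.2, 159, 56.5 and 154 CPM after PHx. No library after PHx reached the baseline range of its genotype. C8b fell 3.17-fold in wild type (log2 change -1.66, SE 0.39, adjusted p = 0.00612) and 3.06-fold in EedHepKO (log2 change -1.61, SE 0.39, adjusted p = 0.00593).

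C8g binds the C8a chain. In wild type C8g measured 384, 431, 412, 400.1 and 363 CPM at baseline and 204, 137, 159, 144 and 164 CPM after PHx. In EedHepKO C8g measured 189, 274, 261, 296 and 333 CPM at baseline and 81.3, 48.1, 169.9, 81.7 and 197 CPM after PHx. It fell in both genotypes (log2 change -1.30, SE 0.28, adjusted p = 0.00379 in wild type and log2 change -1.23, SE 0.28, adjusted p = 0.00459 in EedHepKO). In wild type C8a measured 1291, 1079, 1266, 1124 and 1195 CPM at baseline and 1076, 465, 834, 165 and 1091 CPM after PHx. In EedHepKO C8a measured 675, 1013, 556, 643 and 499 CPM at baseline and 155, 113, 455, 312 and 364 CPM after PHx. Wild-type replicate 5 after PHx was within the baseline range, replicate 1 just below it and replicate 4 the lowest (log2 change -0.71, SE 0.41, adjusted p = 0.226). C8a fell in EedHepKO without overlap (log2 change -1.28, SE 0.41, adjusted p = 0.0262), with an adjusted p of 0.0529 when the mouse was a block.

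C6 and C9, which join C5b and C8 in the membrane pore, fell in both genotypes. In wild type C6 measured 559.8, 281, 357, 344 and 381 CPM at baseline and 280.0, 34.7, 149, 37.9 and 238 CPM after PHx. In EedHepKO C6 measured 427, 429, 379, 429 and 268 CPM at baseline and 89, 38, 161, 85.6 and 169.9 CPM after PHx. The levels before and after PHx did not overlap in either genotype (log2 change -1.38, SE 0.48, adjusted p = 0.0483 in wild type and log2 change -1.83, SE 0.49, adjusted p = 0.0103 in EedHepKO). C9 ranged from 918 to 1095 CPM at wild-type baseline and from 246 to 814 CPM after PHx. In EedHepKO C9 ranged from 635 to 1266 CPM at baseline and from 227 to 698 CPM after PHx. The changes of C9 were -1.08 and -1.08 (adjusted p = 0.0396 and 0.0301). Hc encodes C5, whose cleavage starts the terminal pathway. In wild type Hc measured 1352, 1074, 1308, 1217 and 1287 CPM at baseline and 1161, 306, 798, 325 and 1510.1 CPM after PHx. In EedHepKO Hc measured 668, 1005, 559, 525 and 458 CPM at baseline and 209, 129, 486, 288 and 469 CPM after PHx. Wild-type replicate 5 after PHx was above the baseline range, and replicates 2 and 4 were far below it (log2 change -0.61, SE 0.40, adjusted p = 0.308). In EedHepKO the value was -1.02 (SE 0.41, adjusted p = 0.0623).

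The classical pathway proteases C1ra and C2 fell in both genotypes, and C4b did not pass the threshold. C1ra encodes C1r, the protease of the C1 complex, and its near copy C1rb had few counts of its own (1.11 to 2.48 CPM at wild-type baseline). In wild type C1ra measured 359, 316, 354.2, 353 and 345 CPM at baseline and 208, 126, 146, 113 and 180.0 CPM after PHx. In EedHepKO C1ra measured 214, 229.5, 255, 296 and 310.1 CPM at baseline and 83.4, 55.7, 169.9, 95.3 and 206 CPM after PHx. The levels before and after PHx did not overlap in either genotype (log2 change -1.16, SE 0.27, adjusted p = 0.00617 in wild type and log2 change -1.10, SE 0.27, adjusted p = 0.00692 in EedHepKO).

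C2 encodes the catalytic subunit of the classical C3 convertase. In wild type C2 measured 30.6, 27, 28.5, 26.9 and 28.1 CPM at baseline and 12.8, 4.87, 9.47, 5.57 and 10.1 CPM after PHx. In EedHepKO C2 measured 17.7, 19.1, 19.2, 18 and 19 CPM at baseline and 5, 3.47, 11.7, 6 and 10.8 CPM after PHx. Here too the groups did not overlap in either genotype. C2 fell 3.29-fold in wild type (log2 change -1.72, SE 0.29, adjusted p = 0.00069) and 2.52-fold in EedHepKO (log2 change -1.33, SE 0.29, adjusted p = 0.00353). C4b encodes the other subunit of that convertase, and reads could be split between it and its near copy C4a. C4b ranged from 968 to 1312 CPM at wild-type baseline and from 922 to 1144 CPM after PHx. In EedHepKO C4b ranged from 900.0 to 1069.5 CPM at baseline and from 567.6 to 1009 CPM after PHx. The changes of C4b were -0.19 and -0.35 (adjusted p = 0.471 and 0.126).

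In the lectin pathway, in which mannose-binding lectins recognise sugars on microbes, Masp2 fell in both genotypes. Masp2 encodes the protease that cleaves C4 and C2. In wild type Masp2 measured 273, 298, 292, 304 and 301 CPM at baseline and 207, 162, 188, 87.5 and 184 CPM after PHx. In EedHepKO Masp2 measured 153, 180.3, 215, 208 and 239.6 CPM at baseline and 67.5, 54.6, 157, 93.2 and 137 CPM after PHx. It fell without overlap in wild type (log2 change -0.82, SE 0.26, adjusted p = 0.0294) and with overlap through replicate 10 in EedHepKO (log2 change -0.97, SE 0.26, adjusted p = 0.0102). Tardbp on the other strand overlaps 54.9% of the exon bases of Masp2, and whether counting used strand is not given in the sources used here.

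Masp1, a related protease, showed little change. Masp1 ranged from 65.3 to 96.1 CPM at wild-type baseline and from 50.1 to 88.6 CPM after PHx. In EedHepKO Masp1 ranged from 53.9 to 79.7 CPM at baseline and from 51.1 to 78.4 CPM after PHx. The changes were -0.12 (SE 0.18) and -0.09 (SE 0.18). Mbl1 and Mbl2 encode the lectins themselves and varied widely between libraries after PHx. Mbl1 ranged from 222 to 265 CPM at wild-type baseline and from 42.2 to 247 CPM after PHx. In EedHepKO Mbl1 ranged from 123 to 153 CPM at baseline and from 18.8 to 155 CPM after PHx. Mbl2 measured 193, 19.9, 72.8, 46.4 and 496 CPM in wild type after PHx against 349 to 419 CPM at baseline. In EedHepKO Mbl2 measured 113, 79.3, 545, 259 and 381 CPM after PHx against 441 to 639.6 CPM at baseline. Neither lectin passed the threshold, with Mbl1 at -0.92 and -1.16 (adjusted p = 0.178 and 0.0698) and Mbl2 at -1.21 and -0.99 (adjusted p = 0.168 and 0.219). With the mouse as a block Mbl1 passed in EedHepKO (-1.59, adjusted p = 0.0287) and Mbl2 in wild type (-2.44, adjusted p = 0.0351).

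C3 encodes the component on which all pathways converge. C3 ranged from 6868 to 8963 CPM at wild-type baseline and from 5409 to 13231 CPM after PHx. In EedHepKO C3 ranged from 7985 to 11789 CPM at baseline and from 3235 to 12724 CPM after PHx. Wild-type replicates 1, 3 and 5 after PHx were above the baseline range and replicates 2 and 4 below it. Neither change passed the threshold (0.24, adjusted p = 0.63, and -0.49, adjusted p = 0.244).

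Cfb encodes factor B, the protease of the alternative pathway. In wild type Cfb measured 10.1, 9.25, 11.4, 7.8 and 7.06 CPM at baseline and 8.63, 3.61, 10.2, 2.94 and 7.18 CPM after PHx. In EedHepKO Cfb measured 8.5, 8.54, 7.59, 10.7 and 8.4 CPM at baseline and 2.67, 4.06, 7.13, 4.56 and 3.17 CPM after PHx. It fell in EedHepKO without overlap (log2 change -1.02, SE 0.32, adjusted p = 0.022). In wild type replicates 2 and 4 were below the baseline range and the others within it (log2 change -0.48, SE 0.31, adjusted p = 0.292). Cfi encodes factor I, which inactivates C3b and C4b. In wild type Cfi measured 862, 864, 862, 752 and 845 CPM at baseline and 508, 561, 641, 352 and 658 CPM after PHx. In EedHepKO Cfi measured 634, 809, 659, 667 and 607 CPM at baseline and 345, 286, 541, 338 and 562 CPM after PHx. Cfi fell in both genotypes without overlap, in wild type by 1.54-fold (log2 change -0.62, SE 0.20, adjusted p = 0.0359), with an adjusted p of 0.130 when the mouse was a block, and in EedHepKO by 1.63-fold (log2 change -0.70, SE 0.20, adjusted p = 0.0155).

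The calls for C1ra, C2, C8b, C8g, F2 and Proc in wild type and for C1ra, C2, C6, C8b, C8g, Masp2 and Serpinf2 in EedHepKO held under all 19 alternative analyses of each comparison. The other 10 calls in wild type were lost in 4 to 13 of them and the other 14 in EedHepKO in 1 to 14. Of the 15 genes that fell in wild type, the count was 6 without replicate 4 after PHx, 7 without replicate 2 after PHx and 7 or 8 without any single baseline library, where 5.06% to 6.65% of all genes fell. Of the 20 in EedHepKO, it was 11 without replicate 7 after PHx and 13 without replicate 8 after PHx, where 7.43% and 7.95% of all genes fell. With scaling by library size alone, the median over all tested genes shifts by 0.36 on the log2 scale in wild type and by 0.27 in EedHepKO. Under it 3 genes rose and 6 fell in wild type, where 25.9% of all genes rose and 3.97% fell. In EedHepKO 3 rose and 15 fell, against 27.7% and 6.55% of all genes, and no gene called under the main scaling changed sign.

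The fall was uneven across the libraries after PHx. In the 9 mice with a shared number, 27 to 32 of the 34 genes were below the same mouse's own baseline. The median log2(CPM + 1) change was smallest in EedHepKO replicate 10 (-0.31, 40 h) and wild-type replicate 5 (-0.54, 48 h), and largest in wild-type replicate 4 (-1.60, 48 h) and EedHepKO replicate 8 (-2.10, 48 h). Wild-type replicate 4 was the lowest of its group for 22 of 34 genes and EedHepKO replicate 8 for 27. Wild-type replicate 1 was the highest of its group for 14 and EedHepKO replicate 10 for 19.

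The summed level of 12 proliferation genes also differed between these libraries. It was 1043, 76.7, 258, 50.5 and 1343 CPM in wild-type replicates 1 to 5 after PHx, against 47.1 to 56.5 CPM at baseline. In EedHepKO it was 106, 125, 1522, 446 and 153 CPM after PHx, against 246 to 384 CPM at baseline. F10 measured 382, 129.9, 334, 108 and 348 CPM in wild type and 164, 91.7, 485, 231 and 310.2 CPM in EedHepKO in the same libraries. The 3 libraries with the highest proliferation sums also had the 3 highest F10 levels, while EedHepKO replicate 12, with a low sum, had F10 near them. Fga and F10 were set beside these sums after their values were seen, and the part of proliferation in the levels was not tested.

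**Figure D4:**
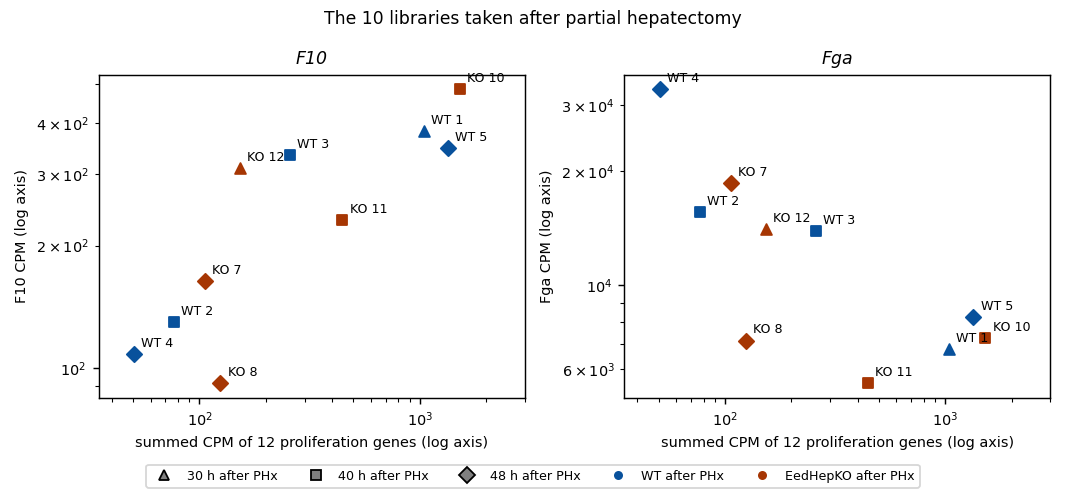
CPM of F10 (left) and Fga (right) in the 10 libraries after PHx against the summed CPM of 12 proliferation genes, all on log axes, with colour for genotype, shape for hours after PHx and the replicate number beside each point. The 3 libraries with the highest sums (wild type 1 and 5, EedHepKO 10) have F10 between 348 and 485 CPM and Fga between 6763 and 8221 CPM, and the 4 with the lowest sums have F10 under 164 CPM, whereas EedHepKO replicate 12, with the next lowest sum (153 CPM), has F10 at 310.2 CPM.

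No gene of the list differed in its response to PHx between the genotypes (edgeR, 0 higher and 0 lower of 34, where 0.164% of all genes responded more positively in EedHepKO and 0.225% more negatively). At an unadjusted p under 0.05 there was 1 gene (13.3% of all genes), and DESeq2 and limma-voom also called 0. That gene was F11 (log2 change -1.03, SE 0.43, adjusted p = 0.299). The next largest differences were those of Serpinf2 (-0.75, SE 0.37) and C3 (-0.73, SE 0.45). Standard errors of these differences ran from 0.24 to 0.85 on the log2 scale, which sets the size that was detectable with these libraries.

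Between 48 h and 40 h after PHx, 0 of 34 genes passed (edgeR; 0.075% of all genes were higher and 0.3% lower at 48 h). At an unadjusted p under 0.05 there were 8 genes, against 20.1% of all genes, and DESeq2 called 5 lower at 48 h, against 4.25% of all genes with an adjusted p. Serpinf2 (-0.68, adjusted p = 0.0963) and Serpinc1 (-0.77, adjusted p = 0.097) had the smallest adjusted p. Without wild-type replicate 5 after PHx 14 genes were lower and 2 higher at 48 h, where 10.8% of all genes in that fit were lower and 4.19% higher. Without EedHepKO replicate 11 after PHx 5 were lower, against 3% of all genes.

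Between the genotypes, F11 stood apart from the rest of the list. F11 encodes factor XI, the protease that thrombin activates to sustain clotting through factor IX. In wild type F11 measured 93.3, 73.8, 83, 108 and 91.6 CPM at baseline and 82.2, 128, 122, 55.7 and 59.4 CPM after PHx. In EedHepKO F11 measured 35.1, 45.7, 21.8, 32.2 and 23.9 CPM at baseline and 9.92, 29.9, 9.65, 14.3 and 13.6 CPM after PHx. Each EedHepKO library was below each wild-type library of either stage. F11 was 2.83-fold lower in EedHepKO at baseline (log2 change -1.50, SE 0.31, adjusted p = 0.00231) and 5.77-fold lower after PHx (log2 change -2.53, SE 0.32, adjusted p = 1.59e-05). Both calls held under all 18 alternatives of each comparison. After PHx F11 fell in EedHepKO (log2 change -1.03, SE 0.30, adjusted p = 0.0169). In wild type the value was -0.0061 (SE 0.30) and its sign changed with the processing, with replicates 2 and 3, at 40 h, above the baseline range and replicates 4 and 5, at 48 h, below it.

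At baseline 2 of 34 genes were lower in EedHepKO than in wild type and 0 higher (edgeR), where 4.89% of all genes were lower and 11.1% higher. DESeq2 also called 2 lower and 0 higher, where it called 4.85% lower and 12.7% higher of the genes to which it gave an adjusted p. An unadjusted p under 0.05 was found for 7 genes and for 30.5% of all genes. The genes were F11 and C8b (log2 change -1.14, SE 0.38, adjusted p = 0.0484), and for both the groups did not overlap. The median log2 change of the list was -0.36 against -0.03 over all genes, and 31 of 34 values were negative. With scaling by library size alone, which shifts the median of all genes by 0.48, the median of the list was 0.12 and 18 of 34 values changed sign, F11 and C8b not among them. C8b lost its call in 13 of 18 alternatives. Among these were the fits without any single baseline library other than EedHepKO replicate 8 (adjusted p 0.0710 to 0.145) and a limma-voom fit with the mouse as a random term (adjusted p = 0.0605).

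The test at baseline uses a spread shared by all 20 libraries. In wild type the SD was larger after PHx than at baseline for every gene of the list but C4b. F10, a gene with a narrow baseline range, measured 540.2 ± 10.6 CPM (SD, n = 5) at wild-type baseline and 260.3 ± 130.3 CPM after PHx. In EedHepKO the SD of some genes was smaller after PHx, as for C8a (200 CPM at baseline and 144 CPM after PHx). The part of this spread in the calls was not tested. With the 10 baseline libraries alone, 15 of 34 genes were lower in EedHepKO and 1 higher, where 18% of all genes tested were lower and 21.4% higher. The groups did not overlap for 16 genes that were lower and 1 that was higher, against 12.2% and 15.6% of all genes. The 15 genes were F2, F5, F9, Proc, F11, Plg, Serpinc1, Hc, C8a, C8b, C8g, C1ra, C2, Mbl1 and Masp2. The gene that was higher was Mbl2, at 441, 500.1, 555, 602 and 639.6 CPM in EedHepKO against 364, 378, 411, 349 and 419 CPM in wild type. The hepatocyte, Kupffer and cholangiocyte marker sums given above differed between the same libraries.

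**Figure D5:**
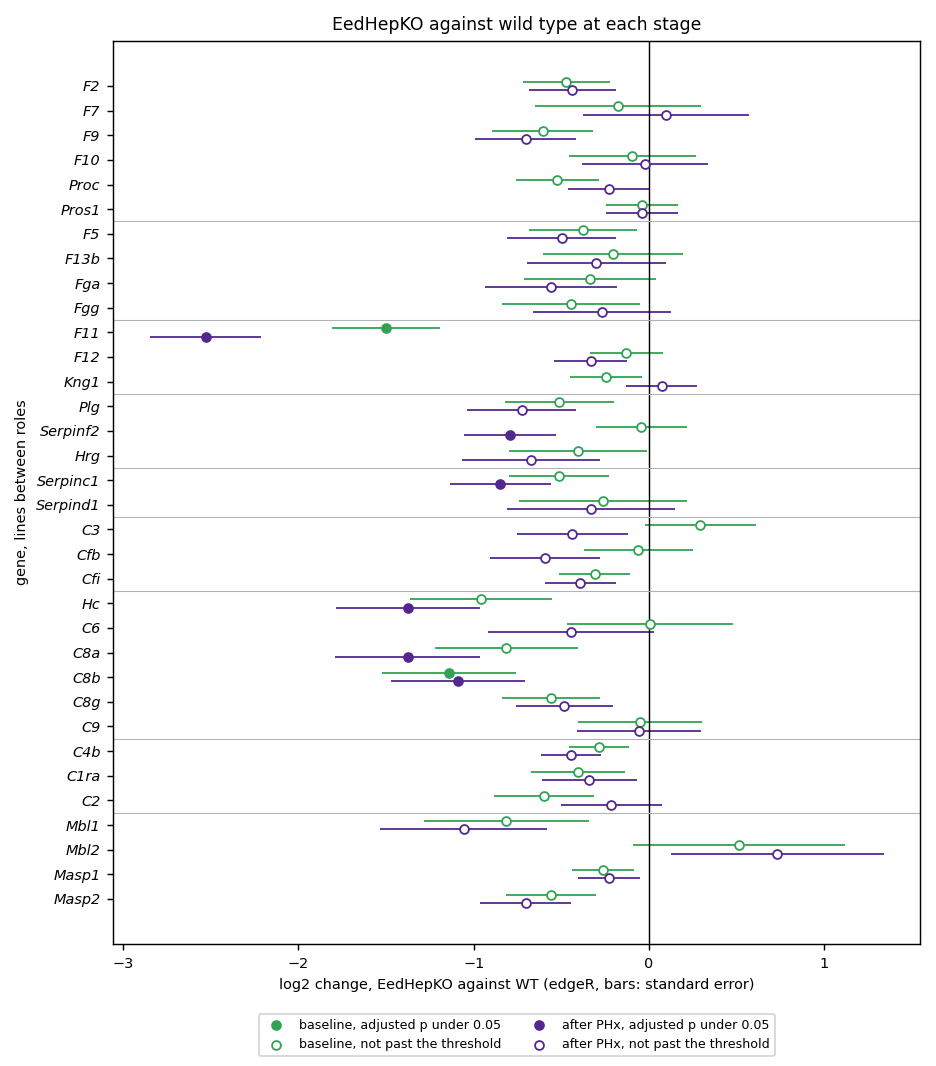
The log2 change of each gene in EedHepKO against wild type at baseline (green) and after PHx (purple), with bars of 1 standard error and filled points where the adjusted p was under 0.05. Most points lie left of 0, and F11 is the farthest from it at both stages.

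After PHx 6 of 34 genes were lower in EedHepKO than in wild type and 0 higher (edgeR), where 8.2% of all genes were lower and 16% higher. DESeq2 called 7 lower and 0 higher, against 7.81% and 16.8% of all genes with an adjusted p. At an unadjusted p under 0.05 there were 11 genes, against 36.5% of all genes. Besides F11 the genes were Hc (log2 change -1.38, SE 0.41, adjusted p = 0.0192), C8a (log2 change -1.38, SE 0.41, adjusted p = 0.0197), C8b (log2 change -1.09, SE 0.38, adjusted p = 0.0441), Serpinc1 (log2 change -0.85, SE 0.29, adjusted p = 0.0365) and Serpinf2 (log2 change -0.79, SE 0.26, adjusted p = 0.0322). Of the 6 genes, 3 belong to the terminal pathway. In the same libraries 6 of 8 cholangiocyte, 7 of 14 stellate and 4 of 14 Kupffer marker genes were higher in EedHepKO and 3 of 14 hepatocyte marker genes were lower, and their part in these differences was not tested. The libraries after PHx are those of the response described above, and the genotypes overlapped for all genes of the list except F11 (over all genes 2.97% were lower without overlap and 7.05% higher). For Hc, wild-type replicates 2 and 4, at 306 and 325 CPM, fell within the EedHepKO range of 129 to 486 CPM. The median of the list was -0.44, against -0.01 over all genes. Library size scaling shifts the latter by 0.38, and under it 3 genes were lower (2.02% of all genes) and 7 of 34 values changed sign, none of them of a called gene.

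With only the 10 libraries after PHx in the fit, F11 alone was lower (1.57% of all genes), and C8a, C8b, Hc, Serpinc1 and Serpinf2 did not pass. With a collection time term 12 genes of the list were lower, where 2167 of all 14661 genes were. Without 1 library after PHx the count of 6 changed. It was 1 without EedHepKO replicate 7, EedHepKO replicate 8 or wild-type replicate 5, 2 without wild-type replicate 1 and 3 without EedHepKO replicate 11. It was 11 without EedHepKO replicate 10 and 12 without EedHepKO replicate 12, and F11 was called in each of these fits. Over all genes 5.12% to 14.4% were lower in them, the highest share without EedHepKO replicate 10. With the mouse as a random term Plg (-0.86, adjusted p = 0.0493), Masp2 (-0.74, adjusted p = 0.0408) and C4b (-0.47, adjusted p = 0.0434) also passed.

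Further genes of the same systems come from lists that do not contain the 34. Of 30 further coagulation and fibrinolysis genes, 8 were higher and 1 lower in EedHepKO at baseline, and 9 higher and 2 lower after PHx. The largest differences were in A2m, a broad protease inhibitor (5.82, SE 1.03, at baseline and 6.99, SE 1.02, after PHx), and in Plat, which encodes tissue plasminogen activator (3.90 and 5.59). F2rl1, a protease-activated receptor, was also higher at both stages (3.82 and 4.64). After PHx 10 of the 30 rose and 4 fell in wild type, and 10 rose and 3 fell in EedHepKO. Those that rose in wild type included Plaur, the urokinase receptor (4.48), Thbd, which encodes thrombomodulin (3.59), and F13a1, the catalytic subunit of factor XIII (4.42).

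Of 35 further complement genes tested, 3 rose and 7 fell after PHx in wild type, and 0 rose and 10 fell in EedHepKO, with medians of -0.46 and -0.67. Colec10, a collectin of the lectin pathway, fell in both (-2.58 and -1.63). C5ar1, the C5a receptor of myeloid cells, rose in wild type (2.94). C5ar1 (2.87) and C1qb (1.25), both expressed by macrophages, were higher in EedHepKO at baseline, beside the Kupffer marker sums given above. After PHx C4a was lower in EedHepKO (-2.49, adjusted p = 1.46e-05), at 8 to 14.2 CPM against 30.3 to 93 CPM in wild type. Apcs encodes serum amyloid P. It rose after PHx in wild type (1.98), its value in EedHepKO was 0.013 (adjusted p = 0.974), and the responses differed (-1.97, adjusted p = 0.0264).

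Acute phase genes rose in the same libraries, 18 of 23 in wild type after PHx (median log2 change 2.22) and 13 of 23 in EedHepKO (median 1.45), and 0 fell. Saa2 (-5.13, adjusted p = 0.0176), Saa1 (-4.22, adjusted p = 0.0418) and Orm2 (-2.51, adjusted p = 0.0454) responded less in EedHepKO than in wild type by the test of the difference. Of 21 other plasma protein genes of hepatocytes, 10 fell and 0 rose in wild type and 11 fell and 0 rose in EedHepKO, with medians of -0.55 and -0.79. Apoh, which binds phospholipids, fell in both genotypes (-1.31 and -1.08), and Ttr, which encodes transthyretin, fell in wild type (-1.34). Among 22 hepatocyte transcription factor genes, 3 rose and 5 fell after PHx in each genotype. Cebpa (-1.77 and -1.22) and Onecut1 (-2.45 and -1.88) fell in both, and Cebpd rose in both (1.69 and 1.62). Nr1i2, the xenobiotic receptor PXR, rose in wild type (1.16). At baseline 6 of the 22 were lower in EedHepKO, among them Nr1h4, the bile acid receptor FXR (-1.18), and Ppara (-1.07).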

How the data were processed

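Poly(A) RNA of 20 liver samples from 10 mice was sequenced as paired-end TruSeq libraries from 1000 ng of RNA with an integrity number above 8 on a NovaSeq 6000, per the labels' protocols and the series' design text. The authors deposited 1 table of raw counts per library, with whole-number counts of uniquely mapped reads per Ensembl gene on mm10. For trimming the design text names fastp 0.20.0 and the submitters' processing notes name Trimmomatic 0.36, with FastQC 0.11.5. The aligner, counter, annotation and strand setting are not given in the sources used here.

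Genes were named from GENCODE M21, which holds 46091 of the 46603 identifiers. Counts were tested with edgeR 4.0.16 (quasi-likelihood, TMM, filterByExpr, 4 group means, all 20 libraries, a threshold of 0.05 on p-values adjusted by Benjamini-Hochberg across the 14661 genes tested) in R 4.3.3, and the scripts were tested on simulated data. There 200 genes were changed by 2 on the log2 scale, and smaller changes were not simulated. Between the genotypes at baseline 78% were recovered and 6.59% of calls were false. In the wild-type response to PHx these were 83.5% and 4.02%. Hours after PHx were compared in a fit with a mean per genotype and time. CPM levels per kilobase use the summed exon length of M21, other isoforms included. Counting precision rests on totals between 21634890 and 30461351 counts.

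The labels state that each mouse gave both of its samples, and 9 mice carry their number in both titles. Wild-type baseline replicate 1 carries no number and was its own block. Residuals of same-numbered libraries correlated at -0.055 to 0.152 (mean 0.055, 9 pairs), others at -0.234 to 0.259. Alternatives were DESeq2 1.42.0, limma-voom (limma 3.58.1) with the mouse as a random term, the replicate block, RLE or library-size scaling, no filter, a collection time term, only the libraries compared, no 30 h libraries and leaving out each library.

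The 35 genes and all other lists were chosen with earlier results of these data known. All 34 matched genes are named. Values per library are given for the 20 called genes with the smallest adjusted p over the 6 comparisons, and ranges for the rest, apart from Fga, Fgg and F10 after PHx and Mbl2 at baseline and after PHx, whose values were added once seen. From other lists, up to 4 called genes with the largest log2 change and at least 1 CPM are named per comparison, and some that this rule picks are not reported here. Promoter sequences are from RefSeq (GRCm38.p6).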

Additional observations from a re-analysis of the deposited data

Results flagged for a closer look

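Each of the 34 genes was examined in each of the 4 groups for a library far from the other 4 by Dixon's criterion (gap over range above 0.71), 136 combinations in all. Of these, 5 (3.68%) held such a library, where chance gives about 1 in 20. F11 measured 29.9 CPM in EedHepKO replicate 8 after PHx, above 9.65 to 14.3 CPM in the others. That library was the lowest of its group for 27 of the 34 genes, and F11 was not among them. Kng1 measured 1177 CPM in wild-type replicate 4 after PHx, below 1684 to 1847 CPM in the others. C8b measured 427 CPM in EedHepKO replicate 8 at baseline, above 235 to 281 CPM. C4b measured 968 CPM in wild-type replicate 2 at baseline, below 1220.1 to 1312 CPM. Cfi measured 752 CPM in wild-type replicate 4 at baseline, below 845 to 864 CPM. No explanation of these values was tested.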

How the results depend on the processing

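Of 45 calls 15 held under all alternatives run and 0 changed sign. Of all 204 changes of single genes (34 genes in 6 comparisons), 63, none of them called, changed sign in at least 1 alternative. Of the changes printed, that of F11 in wild type after PHx was 0.027 with DESeq2, 0.028 with RLE scaling, 0.33 with library size alone, 0.055 with no filter, 0.032 with only the libraries compared, 0.024 without the 30 h libraries and -0.17 to 0.18 without single libraries. With library size alone the changes after PHx were 0.18 for C4b, 0.22 for Masp1 and 0.013 for Serpinf2 in wild type and 0.17 for Masp1 in EedHepKO, and Masp1 in wild type was -0.21 to 0.035 without single libraries. Counts of genes are given as higher and lower, of 34, with the share of all genes called in the same direction by the same fit in brackets. EedHepKO against wild type at baseline (0 and 2) gave 1 and 15 with the 10 baseline libraries alone (21.4% and 18%), 4 lower with a collection time term (8.66%), and 1 lower with RLE scaling (4.11%), library size alone (0.771%), no filter (1.35%) or the limma-voom replicate block (5.32%), and 1 to 2 lower when each library was left out (2.07% to 4.85%). After PHx (0 and 6) it gave 12 lower with a collection time term (14.8%), 3 with library size alone (2.02%) or no filter (3.72%) and 1 with only the libraries compared (1.57%), and 0 to 1 higher (13.1% to 19.9%) and 1 to 12 lower (5.12% to 14.4%) when each library was left out. The response to PHx in wild type (1 and 15) gave 2 higher, Pros1 and Fga, with DESeq2 (13.5%), RLE scaling (12.4%), a collection time term (13.6%) or no 30 h libraries (12.7%), 3 and 6 with library size alone (25.9% and 3.97%; Pros1, Fga and Fgg were higher) and 6 lower with no filter (3.36%), and 0 to 2 higher (8.26% to 12.4%) and 6 to 16 lower (5.06% to 9.09%) when each library was left out. In EedHepKO (1 and 20) it gave the same 3 higher with library size alone (27.7%) and 13 lower with only the libraries compared (7.54%), and 0 to 1 higher (12.1% to 22.8%) and 11 to 28 lower (7.43% to 17.6%) when each library was left out. Lower counts at 48 h against 40 h (0 and 0) were 5 with DESeq2 (4.25%) and 1 with no filter (0.75%), with 0 to 2 higher (0% to 4.19%) and 0 to 14 lower (0.0135% to 10.8%) when each library was left out. The difference of the responses (0 and 0) gave 0 to 1 lower without single libraries (0.1% to 1.98%), the 1 without EedHepKO replicate 10 after PHx. Without EedHepKO baseline replicate 12 or EedHepKO replicate 8 after PHx, 0 genes rose in EedHepKO, and without wild-type baseline replicate 2, 4 or 5 or wild-type replicate 3 after PHx, 0 rose in wild type. Without the 3 genes that share over 40% of their exon bases with another gene (Cfb, C2 and Masp2), an alternative chosen after seeing the data, 13 fell in wild type and 17 in EedHepKO. The replicate block gave 14 lower in wild type (7.53%) and 22 in EedHepKO (11.8%) and changed no call of the responses beside those printed with the results. The random-term fit, in which the mouse correlation was 0.0395, also called F12 (adjusted p = 0.0318) and Hc (adjusted p = 0.0409) lower after PHx in EedHepKO. The fits with only the libraries compared hold fewer libraries and estimate their own spread. The cause of the changes under these and the other alternatives was not tested. Cfb and C2 had the lowest counts and so the least counting precision. With 5 libraries a group, the p-values of the main fit rest on a spread shared by all groups. After PHx that spread holds collection time as well as mouse, and the main fit does not pair the libraries of a mouse.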
